A study of Oryza sativa with 24 samples.

Results

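The NAC genes of rice (Oryza sativa) were examined as a family in RNA-seq libraries from scutellum tissue. A gene was counted as a member when its name in the deposited table followed the ONAC, OsNAC or NAC numbering or when its description named a NAC domain, a NAM protein or No apical meristem. This rule found 88 of the 38866 genes in the table, of which 30 were found by name alone, 20 by description alone and 38 by both. No expression value entered the rule. Another 14 genes annotated as NAC genes under other names, among them SNAC1, OsCUC3 and OMTN3, fell outside it.

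NAC proteins are plant transcription factors that share a DNA-binding domain near the amino terminus and carry a variable region behind it that regulates transcription. The family takes its name from the petunia NAM and the Arabidopsis ATAF and CUC genes. Its members are known for setting the boundaries of shoot organs, for switching on secondary cell wall formation in xylem vessels and fibres, for leaf senescence, and for responses to drought, salt, cold and pathogens. Several NAC transcripts of the NAM and CUC type are cut by the microRNA miR164.

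The libraries came from Nipponbare, the wild-type, and from 35Spro:OsMIR393b, a transgenic line in the Nipponbare background that overexpresses OsMIR393b from the 35S promoter, which is active in most cell types. The microRNA miR393 targets transcripts of auxin receptors. Seeds of both genotypes were kept for 2 d on N6 medium without hormone, which served as the control, or for 2, 5 or 7 d on callus-inducing medium (CIM), which is N6 medium with the synthetic auxin 2,4-D. Each of the 8 groups held 3 libraries, and each library was made from the scutella of 10 seeds according to the methods, although the labels call the tissue mature embryo. The paper calls the 3 libraries of a group biological replicates. Whether they came from separate cultures is not given in the sources used here, so the p-values weigh differences against the spread between these libraries alone. The sources used here do not say how many transgenic lines were sampled. RNA of the N6 control was taken at 2 d alone, so age and medium cannot be told apart at 5 and 7 d.

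Totals per library ran from 50341636 to 70796624 counts. The receptor gene OsTIR1 was at 69.4 to 117 CPM (counts scaled to the effective library size) across the 12 wild-type libraries and ranged between 19.1 and 29.5 CPM across the 12 transgenic ones, and OsAFB2 was at 96.2 to 156 and 54.9 to 90.5 CPM. Over the 4 media and days both were lower in the line, OsTIR1 by a log2 fold change of -1.91 (adjusted p = 6.9e-15) and OsAFB2 by -0.87 (adjusted p = 3.4e-11). In 7 libraries the log2 profile was closer to a library of another group than to the farthest library of their own. The library that stood most apart was replicate 1 of the line at 5 d. Summed transcripts of 50 glutelin and prolamin genes, which mark endosperm, ran from 733 to 2220 CPM over all groups. Their part in the results was not tested. The 3 embryo markers, oleosin and embryo protein genes, were at 6.58 to 10.4 CPM in wild-type on N6, at 256 to 580 CPM in wild-type at 7 d and at 1.42 to 5.34 CPM in the line at 7 d. On N6 the 11 shoot and leaf markers summed to 19 to 42.3 CPM in wild-type against 178 to 288 CPM in the line, and at 7 d to 7.35 to 9.6 against 11.5 to 23.4 CPM. In bulk tissue, fewer cells of a type and less RNA per cell cannot be told apart, which holds for every NAC gene below.

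Levels of the 88 members spanned a wide range when compared per transcript length, as FPKM. A mean over the 24 libraries of 10 FPKM or more was found for 18 members, 27 lay between 1 and 10 FPKM, and 43 were under 1 FPKM. ONAC036 was the most abundant, with a lowest value of 124, a median of 137 and a highest value of 169 FPKM over the 24 libraries. It lay above the next gene, OsNAC6, in 24 of 24 libraries. OsNAC6, also called SNAC2 and known from overexpression in rice for tolerance to cold, drought and salt, had a median of 67.9 FPKM (50.7 to 92.3). Then came ONAC041 (median 35.3 FPKM, 12.5 to 119), ONAC070 (49.1 FPKM, 29.4 to 70.8), OsNAC3 (29.9 FPKM, 6.7 to 103), ONAC037 (31.4 FPKM, 21.6 to 49.3), ONAC039 (10.6 FPKM, 2.93 to 87.7) and NAC5 (22.6 FPKM, 15.9 to 33.3), in order of their means. The order among these 6 was not fixed, since ONAC041 lay above ONAC070 in 12 of 24 libraries and ONAC039 above NAC5 in 10.

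The filter on low counts left 73 members for the test. The other 15 reached at most 0.352 CPM in any library, and 3 of them were at 0 throughout. Among the untested genes were 4 of 5 listed seed NACs, ONAC020, ONAC026, ONAC025 and ONAC128, a list meant for genes expressed in the developing seed. They are not readily seen in scutellum at this depth. The remaining listed gene was not in the table. The list gave ONAC025 and ONAC128 under the names ONAC127 and ONAC129. The members named ONAC127 and ONAC129 here had no counts in any library. Because a gene could pass the filter through 1 high group alone, counts over the 73 genes are given beside the same share of all 29710 tested genes.

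**Figure D1:**
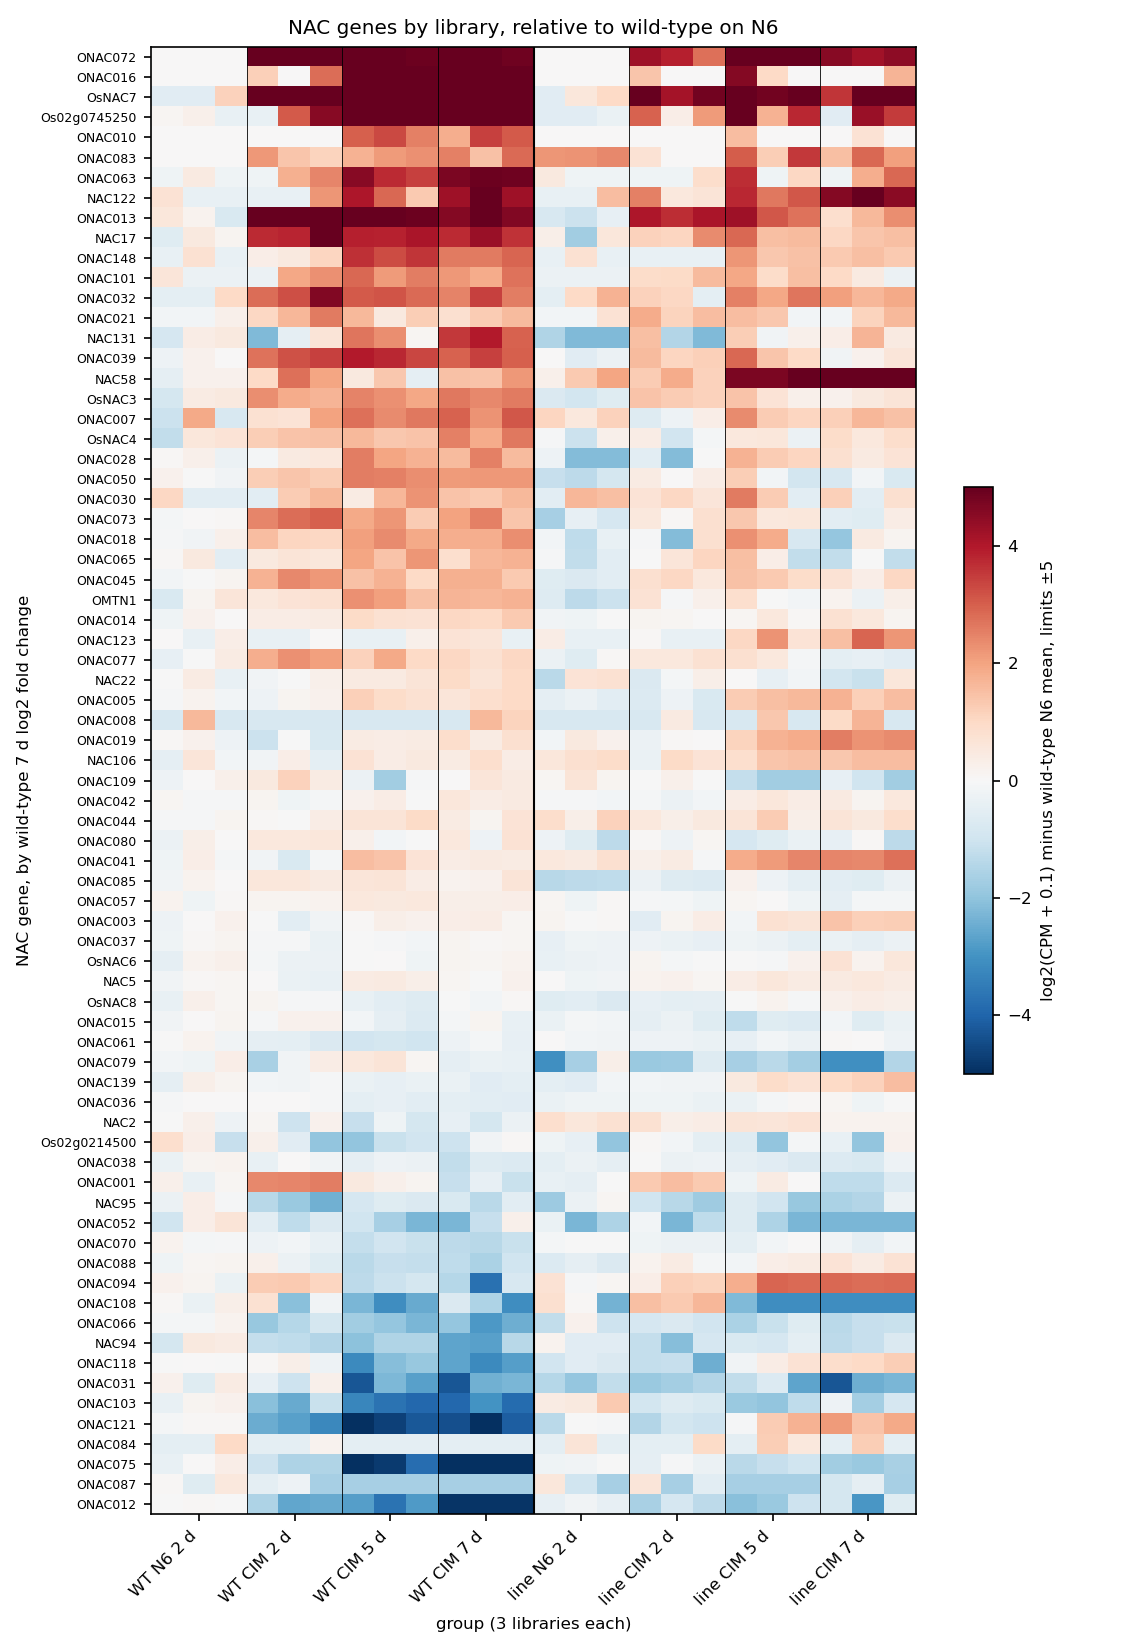
Heat map of the 73 tested NAC genes (rows, ordered by the wild-type log2 fold change at 7 d) in the 24 libraries (columns, 3 per group, WT for wild-type and line for 35Spro:OsMIR393b). Colour gives log2(CPM + 0.1) minus the mean of wild-type on N6 and stops at ±5. Rows such as ONAC121 and ONAC118 are blue in wild-type and red in the line at 7 d.

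To ask which NAC genes changed as wild-type scutella were cultured on CIM, each day was compared with N6. A gene was called when its adjusted p was under 0.05 and its log2 fold change was beyond 1 in either direction. At 2 d, 15 of the 73 members were higher and 6 were lower, which is 20.5% and 8.22%, where 4.3% and 4.01% of all tested genes were called. At 5 d, 25 were higher and 12 lower (34.2% and 16.4%), beside 12.6% and 14.6% of all tested genes. At 7 d the counts were again 25 and 12, beside 14.2% and 14.7%. The median log2 fold change of the 73 members was 0.04 at 2 d, 0.5 at 5 d and 0.51 at 7 d, and that of all tested genes was 0, 0.02 and 0.02. When libraries were scaled to their totals alone, the median of all genes moved to 0.25 at 5 d and 0.29 at 7 d and that of the members to 0.74 and 0.79. The 3 days share the N6 libraries, so the days are not independent of each other.

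**Figure D2:**
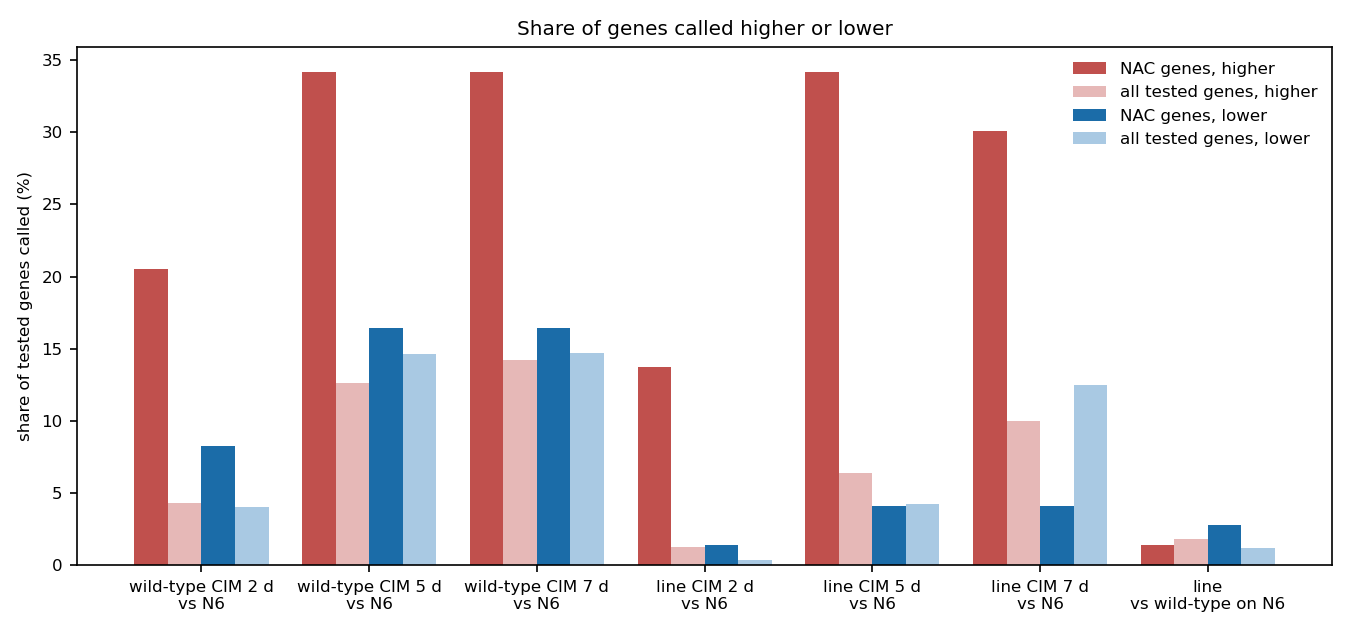
Share of tested NAC genes and of all 29710 tested genes called higher or lower (%, y axis) in each day-by-medium comparison within a genotype and between the genotypes on N6. In wild-type at 7 d 34.2% of NAC genes and 14.2% of all genes were higher, while 16.4% and 14.7% were lower.

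Among the members that rose was OsNAC7, described in the table as similar to NAC domain-containing protein 76, an Arabidopsis protein of the group that drives vessel formation. Its levels in the 3 wild-type libraries were 0, 0 and 0.232 CPM on N6, 7.07, 13.2 and 20.5 CPM at 2 d, 60.8, 44.6 and 31.8 CPM at 5 d, and 73.1, 98.3 and 58.8 CPM at 7 d. Every CIM library of wild-type was thus above every N6 library, and no library at 2 d reached those at 5 or 7 d. The log2 fold change was 7.45 ± 1.00 (SE) at 2 d (adjusted p = 5.3e-05), 9.20 ± 1.03 at 5 d (adjusted p = 6.8e-07) and 9.94 ± 1.05 at 7 d (adjusted p = 2.7e-07). The N6 level rested on a single library with counts, so these folds are uncertain in size.

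ONAC013, similar to the wheat GRAB2 protein that binds a viral replication protein, rose early and stayed high. It was at 1.57, 1.16 and 0.557 CPM on N6, and after 2 d at 48.2, 65.1 and 55.6 CPM in wild-type. At 5 d it was at 64.5, 52.9 and 33 CPM, and at 7 d at 26.9, 38 and 27.8 CPM. The libraries on CIM did not overlap those on N6, and the log2 fold change was 5.68 ± 0.48 at 2 d (adjusted p = 2e-07) and 4.81 ± 0.46 at 7 d (adjusted p = 8.5e-08).

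ONAC039, which the table describes as similar to the boundary protein CUC1, was at 7.28, 10.1 and 8.6 CPM on N6, and after 2 d at 57.1, 79.5 and 92.2 CPM. It was at 136, 119 and 88.3 CPM at 5 d and at 67.7, 93.1 and 68.8 CPM at 7 d. All 9 CIM libraries of wild-type were above the N6 libraries. The log2 fold change was 3.14 ± 0.38 at 2 d (adjusted p = 1.7e-05), 3.72 ± 0.39 at 5 d (adjusted p = 2.8e-07) and 3.14 ± 0.38 at 7 d (adjusted p = 1.3e-06).

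OsNAC3, one of the NACs grouped with stress responses, was at 9.27, 22.8 and 24.3 CPM on N6, and after 7 d at 108, 91.7 and 105 CPM in wild-type. At 2 d it was at 86.3, 62.8 and 56.7 CPM and at 5 d at 97.5, 85.6 and 66.3 CPM. The N6 libraries varied among themselves but lay below all CIM libraries. OsNAC3 rose by a log2 fold change of 1.87 ± 0.30 at 2 d (adjusted p = 0.0003) and 2.44 ± 0.31 at 7 d (adjusted p = 2.3e-06).

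Several members went from no counts on N6 to a measurable level on CIM. ONAC072 had no counts in the 3 N6 libraries of wild-type and was at 5.04, 9.35 and 6.62 CPM at 2 d, 5.29, 4.64 and 2.87 CPM at 5 d, and 5.07, 5.44 and 2.83 CPM at 7 d. Against a floor of 12 counts per library it was at least 38.5-fold higher at 2 d and at least 24.4-fold higher at 7 d (adjusted p = 9.5e-08 and 1.9e-08). ONAC016 also had no counts on N6, was at 0.126, 0 and 0.59 CPM at 2 d, and reached 8.28, 4.71 and 4.83 CPM at 5 d and 3.12, 5.45 and 3.88 CPM at 7 d. Its rise was thus seen at 5 d (at least 32.6-fold, adjusted p = 0.0022) and 7 d (at least 22.8-fold, adjusted p = 0.0027). ONAC010 was at 0 on N6 and at 2 d and at 0.251, 0.978 and 0.745 CPM at 7 d, at least 3.62-fold above the floor (adjusted p = 0.0083). ONAC083 was at 0 on N6 and at most 0.619 CPM on CIM in wild-type, which is at least 2.33-fold above the floor at 7 d (adjusted p = 0.00026).

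The gene Os02g0745250, similar to a NAC domain class transcription factor, climbed over the days. It was at 0.0581, 0.0774 and 0.0155 CPM on N6, at 0.0157, 1.13 and 3.38 CPM at 2 d, and at 29.7, 38.6 and 22.3 CPM at 7 d in wild-type. Replicate 1 at 2 d lay within the N6 range, and the call at 2 d (log2 fold change 4.86 ± 1.55, adjusted p = 0.036) was lost without any of 6 single libraries and with the replicate number as a block. At 7 d the log2 fold change was 9.17 ± 1.63 (adjusted p = 0.00011) with no overlap. ONAC032, similar to Arabidopsis NAC proteins of the NAC21/22 type, was at 0, 0 and 0.186 CPM on N6, and after 2 d at 0.895, 1.21 and 3.45 CPM, a log2 fold change of 4.87 ± 1.31 (adjusted p = 0.015). That call was lost without replicate 2 of N6 or replicate 3 at 2 d.

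In wild-type 12 members (16.4%) were higher on each of the 3 days, which share the N6 libraries, beside 3.09% of all tested genes. They were those described so far other than ONAC016 and ONAC010, and also ONAC073, ONAC050, ONAC045 and NAC17. A further gene, ONAC001, was higher at 2 d only. ONAC001 was at 4.14, 2.65 and 3.74 CPM on N6, at 18.8, 18.9 and 20.8 CPM at 2 d, at 4.91, 4.14 and 3.77 CPM at 5 d and at 1.49, 2.6 and 1.54 CPM at 7 d. The 2 d libraries stood clear of the rest (log2 fold change 2.47 ± 0.24, adjusted p = 1.4e-06), and 7 d lay below 2 d by a log2 fold change of -3.38 ± 0.25 (adjusted p = 1.7e-08).

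Members that fell in wild-type were led by ONAC121, ONAC103, ONAC075 and ONAC012. ONAC121 was at 24.7, 28 and 27.4 CPM on N6, at 4.63, 4.02 and 2.73 CPM at 2 d, at 0.722, 0.944 and 1.33 CPM at 5 d and at 1.16, 0.734 and 1.45 CPM at 7 d. All CIM libraries lay below the N6 libraries, with a log2 fold change of -2.82 ± 0.41 at 2 d (adjusted p = 0.00011) and -4.58 ± 0.45 at 7 d (adjusted p = 9.8e-08). ONAC103 was at 16.9, 24 and 25.6 CPM on N6, and after 7 d at 1.35, 2.68 and 1.41 CPM, a log2 fold change of -3.61 ± 0.42 (adjusted p = 9.7e-07). It was already lower at 2 d (-1.82 ± 0.39, adjusted p = 0.0034).

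ONAC075, similar to an Arabidopsis NAM-type protein, was at 9.58, 12.6 and 15.7 CPM on N6, and after 2 d at 6.05, 4.2 and 4.31 CPM, which did not pass the test. It was at 0, 0.354 and 0.798 CPM at 5 d and at 0.0926, 0.21 and 0.101 CPM at 7 d. The 7 d libraries were below those on N6 by a log2 fold change of -6.52 ± 0.69 (adjusted p = 2.7e-07). ONAC012 was at 2.85, 2.99 and 2.86 CPM on N6 and had no counts in the 3 libraries at 7 d, at least 19.3-fold lower (adjusted p = 1.3e-07). Other falls at 2 d were those of NAC95 (log2 fold change -2.08 ± 0.55, adjusted p = 0.013), a NAC the table links to drought and cold tolerance, and NAC94 (-1.59 ± 0.52, adjusted p = 0.039), similar to OsNAC6. ONAC108 fell at 5 d (-4.10 ± 1.43, adjusted p = 0.025) from at most 0.943 CPM on N6, and ONAC087, at most 0.356 CPM on N6, had no counts at 5 and 7 d, at least 1.55-fold lower at 7 d (adjusted p = 0.027). The levels of ONAC108 and ONAC087 were a few fragments per library, and the calls of NAC95, NAC94, ONAC108 and ONAC087 given here were each lost without 1 or more single libraries.

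**Figure D3:**
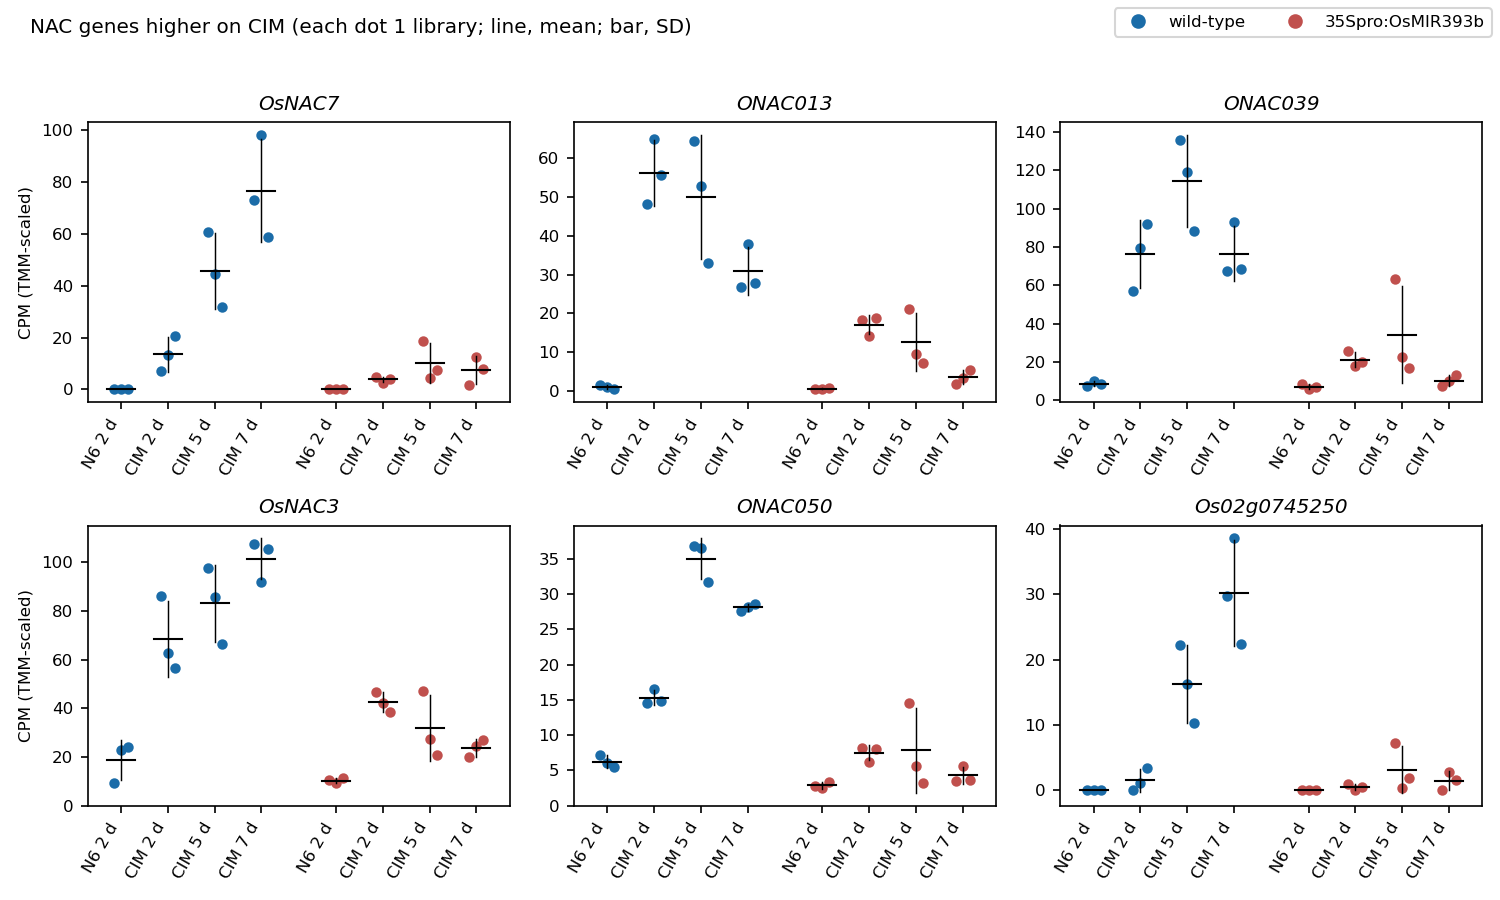
CPM per library (y axis, TMM-scaled) of 6 NAC genes that were higher on CIM in wild-type, in the 8 groups (x axis). Dots are libraries, blue for wild-type and red for 35Spro:OsMIR393b, horizontal lines are means and vertical bars are SD. At 7 d OsNAC7 reached 58.8 to 98.3 CPM in wild-type, while its range in the line was 1.68 to 12.4 CPM, a difference in change that did not pass the test.

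The same comparisons were made in 35Spro:OsMIR393b to see which NAC genes changed on CIM when the auxin receptors were low. At 2 d, 10 of 73 members were higher and 1 was lower, beside 1.22% and 0.37% of all tested genes. At 5 d, 25 were higher and 3 lower, beside 6.35% and 4.21%, and at 7 d 22 were higher and 3 lower, beside 10% and 12.5%. In the line 34.2% of the members were thus higher at 5 d and 30.1% at 7 d, and 4.11% were lower on both days. The median log2 fold change of the members was 0.2, 0.83 and 0.78, and that of all genes 0, 0.02 and -0.02. Scaled to library totals, the 7 d median of all genes moved to -0.27 and that of the members to 0.53. The count at 2 d rested on single libraries, since 6 members were higher without replicate 3 on N6 or without replicate 1 at 2 d, and 6 were lower at 7 d without replicate 3 at 7 d. At 5 d, 18 members were higher in the fit with the fewest calls after 1 library was left out.

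Of the members higher in wild-type, 9 of 15 were higher in the line at 2 d (60%), 16 of 25 at 5 d (64%) and 11 of 25 at 7 d (44%), beside 21.1%, 25.3% and 21.1% of all genes higher in wild-type. These are 90%, 64% and 50% of the members higher in the line, where the shares over all genes were 74.8%, 50.1% and 30.1%. ONAC016, ONAC050 and ONAC018 are among the 16 at 5 d, yet their line libraries at 5 d overlapped those on N6. All of the 16 other than ONAC041 were highest in replicate 1 of the line at 5 d, the library that stood most apart. ONAC039, for example, had 4293 counts there, against 1360 and 962 in replicates 2 and 3. The overlap at 5 d was not counted without that library. On all 3 days 6 members were higher in the line (8.22%, beside 0.633% of all tested genes), namely ONAC013, OMTN1, OsNAC7, OsNAC3, ONAC072 and ONAC045. ONAC013 was at 0.543, 0.424 and 0.731 CPM on N6, and after 2 d at 18.2, 14.2 and 18.9 CPM, a log2 fold change of 4.92 ± 0.48 (adjusted p = 3.8e-06). At 7 d it was at 1.92, 3.29 and 5.44 CPM, still above N6 (2.65 ± 0.45, adjusted p = 0.00011) and below its own 2 d libraries. ONAC072 had no counts on N6 in the line and was at 7.52, 5.91 and 5.71 CPM at 5 d, at least 33.7-fold higher (adjusted p = 1.3e-07).

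OsNAC7 in the line was at 0, 0.121 and 0.195 CPM on N6, at 4.61, 2.6 and 4.14 CPM at 2 d, at 18.8, 4.18 and 7.62 CPM at 5 d and at 1.68, 12.4 and 8.02 CPM at 7 d. It rose on each day, with a log2 fold change of 5.14 ± 0.95 at 2 d (adjusted p = 0.0046) and 6.11 ± 0.95 at 7 d (adjusted p = 4.2e-05). The line libraries on CIM spread widely and at 5 and 7 d lay below every wild-type library of those days. ONAC045, a gene linked in rice to drought and salt tolerance, was at 2.16, 2.03 and 2.31 CPM on N6, and after 5 d at 9.59, 8.4 and 6.52 CPM (log2 fold change 1.92 ± 0.23, adjusted p = 1.4e-05). In wild-type the same gene was at 3.07, 3.33 and 3.77 CPM on N6 and 9.52, 11.6 and 6.83 CPM at 5 d, and the change differed between the genotypes by -0.46 ± 0.32 on the log2 scale at 5 d (adjusted p = 0.29) and by 0.28 ± 0.32 at 7 d (adjusted p = 0.51), neither of which passed.

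Other members rose in the line and were not called in wild-type. ONAC005 was at 7.22, 7.95 and 6.91 CPM on N6, and after 7 d at 33.4, 22.5 and 29 CPM in the line (log2 fold change 1.94 ± 0.18, adjusted p = 1.4e-07). In wild-type ONAC005 went from 9.56, 11.3 and 8.94 CPM to 15.3, 17.8 and 19.7 CPM (0.82 ± 0.17), without overlap but short of the fold required. ONAC019 was at 4.7, 7.42 and 5.98 CPM on N6, and after 7 d at 30.7, 24.7 and 27.1 CPM in the line (2.19 ± 0.25, adjusted p = 1.2e-06). Neither gene had overlapping libraries in the line. ONAC001 at 2 d was the gene with a short rise here too, at 8.75, 10.2 and 8.76 CPM after 2.65, 2.47 and 3.45 CPM on N6 (1.69 ± 0.24, adjusted p = 0.00028).

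The difference between the genotypes in the change from N6 was then tested, given as the wild-type change minus that of the line. At 2 d, 1 member passed with a positive difference, beside 0.252% of all genes. With a negative difference 0 passed in edgeR, beside 0.283%, and 2 passed in DESeq2. An unadjusted p under 0.05 in either direction was reached by 18 members. The share of all genes at that p was not counted, so the 18 cannot be read as an excess. At 5 d, 2 passed with a positive and 10 with a negative difference, beside 6.5% and 11.8%. At 7 d the counts were 8 and 13, beside 16.1% and 15.5%. The members' shares at 7 d were 11% and 17.8%, near those of all genes for negative differences. Scaled to library totals, the median of all genes moved to 0.33 at 5 d and 0.6 at 7 d, and the counts became 3 and 6 at 5 d and 15 and 9 at 7 d. At 7 d 5 members had a positive difference without replicate 1 of wild-type on N6 or without replicate 1 of the line at 7 d, and at 5 d 5 had one without replicate 1 of the line at 5 d. At 5 d 4 had one without replicate 2 of N6 in either genotype, and the fewest after leaving out a library was 1.

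ONAC121 gave the smallest p at both 5 and 7 d. While it fell in wild-type, in the line it was at 10.3, 26.1 and 25.4 CPM on N6, at 9.66, 14.1 and 12.9 CPM at 2 d, at 25.6, 64.1 and 88.3 CPM at 5 d and at 117, 72.3 and 98.2 CPM at 7 d. All line libraries at 7 d were above all N6 libraries of both genotypes, and all wild-type libraries at 7 d were below them. It rose in the line at 7 d (log2 fold change 2.21 ± 0.39, adjusted p = 0.00014), and the difference was -6.26 ± 0.59 at 5 d (adjusted p = 1.5e-06) and -6.80 ± 0.59 at 7 d (adjusted p = 1.5e-07).

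ONAC118 also moved in opposite directions in the genotypes at 5 and 7 d. It was at 10.7, 11 and 10.6 CPM on N6, 11.1, 13 and 9 CPM at 2 d, and 1.64, 1.11 and 1.53 CPM at 7 d in wild-type. In the line it was at 5.55, 7.15 and 6.57 CPM on N6, 4.71, 4.84 and 1.92 CPM at 2 d, and 19.8, 21.5 and 25.1 CPM at 7 d. The libraries at 7 d lay on opposite sides of those on N6, and the difference was -3.45 ± 0.46 at 5 d (adjusted p = 2.5e-05) and -4.70 ± 0.47 at 7 d (adjusted p = 4.7e-07).

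ONAC088 was at 15.7, 19.6 and 20.5 CPM on N6 and 7.67, 6.07 and 9.1 CPM at 7 d in wild-type, and at 11.4, 13.4 and 11 CPM and 30.1, 24.9 and 30.4 CPM in the line. The difference was -2.54 ± 0.28 at 7 d (adjusted p = 1.4e-06), with a fall in wild-type (-1.29 ± 0.20) and a rise in the line (1.25 ± 0.20, adjusted p = 5.7e-05) that was lost when libraries were scaled to their totals. ONAC139 was at 16.4, 26.9 and 24.6 CPM on N6 and 17.5, 15 and 15.6 CPM at 7 d in wild-type, where it did not reach the fold required. In the line it went from 15.6, 15.1 and 20.1 CPM to 44, 49.7 and 65.2 CPM (1.65 ± 0.17, adjusted p = 3.7e-07), and the difference was -2.14 ± 0.23 (adjusted p = 9.7e-07). With ONAC094, which went from 1.41, 1.33 and 0.959 CPM to 0.397, 0 and 0.657 CPM in wild-type and from 2.05, 1.17 and 1.3 CPM to 9.49, 9.14 and 9.38 CPM in the line, 4 members were lower in wild-type and higher in the line at 7 d, namely ONAC088, ONAC094, ONAC118 and ONAC121. They are 5.48% of the tested members, beside 1.65% of all tested genes, and make up 33.3% of the 12 members that fell in wild-type and 18.2% of the 22 that rose in the line. Over all genes these last shares were 11.2% and 16.5%. ONAC094 lies outside the rule for named genes and was named after its values were seen, and its fall in wild-type was lost without replicate 1 on N6.

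**Figure D4:**
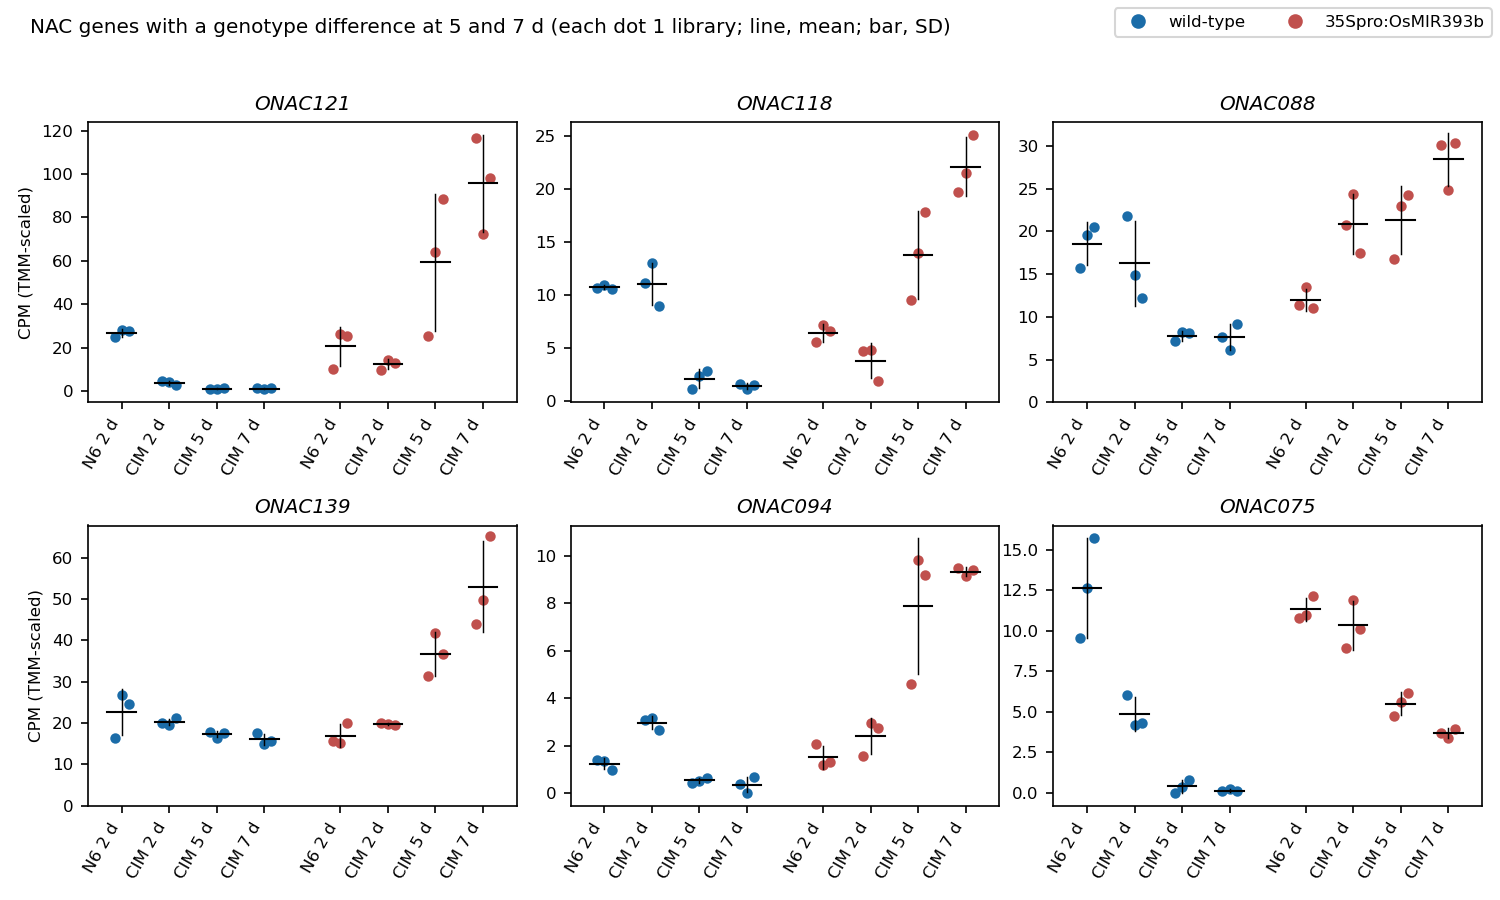
CPM per library (y axis, TMM-scaled) of 6 NAC genes with a difference between the genotypes at 5 and 7 d, in the 8 groups (x axis). Dots are libraries, blue for wild-type and red for 35Spro:OsMIR393b, lines are means and bars are SD. ONAC121 reached 72.3 to 117 CPM in the line at 7 d and 0.734 to 1.45 CPM in wild-type.

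A larger fall in wild-type marked ONAC075, which in the line was at 10.8, 11 and 12.2 CPM on N6 and 3.69, 3.37 and 3.95 CPM at 7 d (log2 fold change -1.62 ± 0.53, adjusted p = 0.017). The difference between the genotypes was -4.90 ± 0.83 at 7 d (adjusted p = 8.5e-05). ONAC103 fell in both genotypes, to 18.2, 6.59 and 12 CPM at 7 d from 28.7, 30.8 and 53.9 CPM on N6 in the line, with a difference of -1.98 ± 0.55 (adjusted p = 0.0057). ONAC041, of unassigned role, was at 29.4, 27.8 and 36.1 CPM on N6 and 112, 108 and 137 CPM at 7 d in the line (1.93 ± 0.22, adjusted p = 1.7e-06). In wild-type it was at 17.5, 25.5 and 19 CPM on N6 and 26.3, 28.2 and 27.4 CPM at 7 d, without overlap but short of the fold required. It was called higher in wild-type at 5 d only. Its difference at 7 d was -1.53 ± 0.31 (adjusted p = 0.00048), a call lost when libraries were scaled to their totals, as were those of ONAC070, ONAC019 and ONAC005 at 7 d. OsNAC8, also called NTL3 and known in rice as a membrane-bound NAC of the heat response, differed at 5 d by -1.19 ± 0.17 (adjusted p = 5.2e-05), and that call too was lost under library totals. It was at 34.6, 53.1 and 47.6 CPM on N6 and 34.1, 30.5 and 28.2 CPM at 5 d in wild-type and at 29.3, 31.1 and 27 and then 43.7, 50.3 and 42.5 CPM in the line.

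A larger rise in wild-type was found for ONAC013, ONAC039, OsNAC3, ONAC050 and NAC17 among others at 7 d. ONAC039 in the line was at 8.63, 5.71 and 7.04 CPM on N6 and 7.68, 10 and 13.1 CPM at 7 d, which overlapped, and the difference was 2.62 ± 0.51 (adjusted p = 0.00032). ONAC013 differed by 2.16 ± 0.61 (adjusted p = 0.007) and OsNAC3 by 1.24 ± 0.42 (adjusted p = 0.02), the latter no longer passing without replicate 1 of wild-type on N6 or of the line at 7 d. OsNAC3 in the line was at 10.4, 9.12 and 11.4 CPM on N6, and after 7 d at 19.9, 24.4 and 26.9 CPM, a rise (1.20 ± 0.30, adjusted p = 0.0029) that was lost under library totals. ONAC050 and NAC17, the latter described as responsive to blast disease, were named after their values were seen and differed by 1.59 ± 0.48 (adjusted p = 0.01) and 2.67 ± 1.00 (adjusted p = 0.035). The NAC17 call was lost without any of 6 single libraries. OsNAC7, the member with the highest wild-type level among those that started near 0, differed by 3.84 ± 1.59 at 7 d (adjusted p = 0.054), which did not pass. The positive differences of ONAC083 and ONAC108 rested on levels of at most 1.06 and 2.58 CPM, with whole groups at 0.

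**Figure D5:**
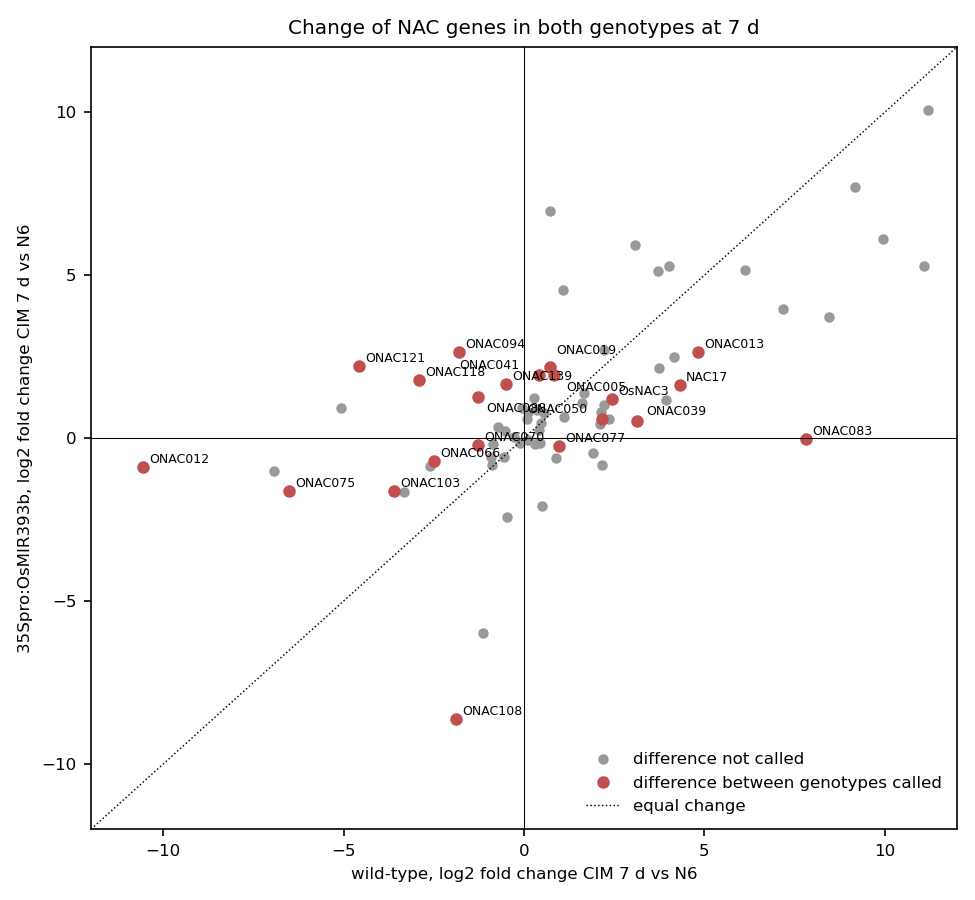
Log2 fold change of the 73 tested NAC genes at 7 d against N6 in wild-type (x axis) and in 35Spro:OsMIR393b (y axis). Each point is a gene, red where the difference between the genotypes passed the test (21 genes, named), and the dotted line marks equal change. Folds of genes with a group at 0, such as ONAC012 and ONAC083, are fitted values that depend on the prior count. ONAC121, ONAC118, ONAC094 and ONAC088 lie in the upper left, lower in wild-type and higher in the line.

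The markers of other tissues also differed between the genotypes. At 2 d the 2 root markers summed to 515 to 759 CPM in wild-type against 201 to 270 CPM in the line, and at 7 d to 16.2 to 32.3 against 41.8 to 45.3 CPM. Shoot and leaf markers at 5 d summed to 5.61 to 7.05 CPM in wild-type against 30.2 to 82.7 CPM in the line. The embryo markers at 5 d summed to 239 to 515 CPM in wild-type against 4.84 to 68.7 CPM in the line. Their part in the NAC differences was not tested.

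On N6 medium 1 member was higher and 2 were lower in the line than in wild-type, beside 1.79% and 1.18% of all genes, with a median log2 fold change of -0.3 for the members and 0.01 for all genes. ONAC085, similar to Arabidopsis ANAC075, was at 15.4, 20.1 and 17.6 CPM in wild-type and 6.66, 7.04 and 7.2 CPM in the line, with no overlap (log2 fold change -1.34 ± 0.17, adjusted p = 0.00015). OMTN1, a target of miR164 in rice, was at 4.45, 8.52 and 11.7 CPM in wild-type and 4.89, 3.01 and 3.58 CPM in the line, which overlapped (-1.10 ± 0.32, adjusted p = 0.041), and the call was lost without any of 6 single libraries. ONAC083 had no counts in wild-type and 0.368, 0.379 and 0.423 CPM in the line, at least 2.14-fold above the floor (adjusted p = 0.005).

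Between 2 and 7 d on CIM, 7 members were higher and 12 lower at 7 d in wild-type, beside 8.44% and 10.7% of all genes, and 15 were higher and 7 lower in the line, beside 10.3% and 14.5%. Under library totals, where the medians of all genes were 0.28 and -0.27, wild-type had 17 higher and 7 lower members, the line 12 and 9. In wild-type 4 members were higher without replicate 1 at 2 d, and in the line 4 were lower without replicate 1 at 7 d. ONAC001 was lower at 7 d in both genotypes, by -3.38 ± 0.25 in wild-type and by -2.51 ± 0.25 in the line (adjusted p = 2.1e-07). ONAC013 was lower at 7 d than at 2 d in the line (-2.27 ± 0.41, adjusted p = 0.00016), and OsNAC7 was higher at 7 d than at 2 d in wild-type (2.50 ± 0.69, adjusted p = 0.0065). Averaged over the 4 media and days, 10 members were higher and 19 lower in the line, beside 11.9% and 10.4%, and 6 and 24 under library totals, where the median of all genes was -0.26. No member had all 12 libraries of the line above, or all below, the 12 of wild-type.

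Over both genotypes and the 3 days, 50 of the 73 tested members (68.5%) changed at least once against N6, beside 45.5% of all tested genes. The other 23 passed in none of these 6 comparisons, among them the abundant ONAC036, OsNAC6, ONAC037 and NAC5. ONAC036 was at 416, 437 and 440 CPM on N6 and 309, 296 and 291 CPM at 7 d in wild-type, which did not overlap but did not reach the fold required (log2 fold change -0.53 ± 0.09, adjusted p = 0.00011). In the line OsNAC6 went from a mean of 86.7 CPM on N6 to 151 CPM at 7 d (0.80 ± 0.15, adjusted p = 0.00025). NAC5 went from 40.6 to 61.1 CPM there (0.59 ± 0.11, adjusted p = 0.00021). Both rose without overlap but short of the fold required. ONAC070 just passed in wild-type, from 182, 153 and 154 CPM on N6 to 65.4, 62.6 and 74.2 CPM at 7 d (-1.27 ± 0.12, adjusted p = 5e-08), and did not under library totals.

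Members were also read by their known roles. Among 12 listed stress NACs, of which SNAC1 is outside the rule, 3 were higher in wild-type at 2 d, 4 at 5 d and 6 at 7 d, and 2, 4 and 6 were higher in the line, while the rest passed in neither direction. In wild-type 4.3%, 12.6% and 14.2% of all tested genes were higher on these days. The line had 1.22%, 6.35% and 10%, and of all tested members 34.2% and 30.1% were higher at 7 d in wild-type and the line. Their median log2 fold change at 7 d was 1.27 in wild-type and 1.11 in the line, beside 0.02 and -0.02 for all genes. NAC58, known in rice as OsNAP and as an activator of leaf senescence, was at 0.0639, 0.242 and 0.439 CPM on N6 in the line and at 3.5, 3.55 and 5.07 CPM at 5 d and 17.8, 11.2 and 16.1 CPM at 7 d. It rose there by 5.91 ± 0.83 on the log2 scale (adjusted p = 1.3e-05). In wild-type it went from 0, 0.0619 and 0.0618 CPM to 0.278, 0.268 and 0.518 CPM at 7 d (3.06 ± 0.92, adjusted p = 0.0087), and the difference between the genotypes of -2.85 ± 1.31 did not pass (adjusted p = 0.083). OsNAC4, which promotes hypersensitive cell death in rice, was at 0.669, 2.62 and 2.78 CPM on N6 and 10.5, 6.57 and 11.3 CPM at 7 d in wild-type (2.22 ± 0.45, adjusted p = 0.00037).

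Of 4 chlorophyll breakdown genes known to follow OsNAP, 2 were higher in wild-type and 1 in the line at 7 d, beside 14.2% and 10% of all tested genes. Counts from so short a list say little. The gene higher in the line was SGR, which starts chlorophyll breakdown, with a mean of 1.71 CPM on N6 and 9.19 CPM at 7 d in the line. In wild-type SGR went from a mean of 2.01 to 6.77 CPM.

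Among the 6 tested of 8 listed secondary wall NACs, 1 was higher in wild-type at 2 d, 3 were higher and 1 lower at 5 and at 7 d, and in the line 1, 2 and 1 were higher. Of all tested genes, 4.3%, 12.6% and 14.2% were higher in wild-type at 2, 5 and 7 d, and 14.6% and 14.7% were lower at 5 and 7 d. In the line 1.22%, 6.35% and 10% of all tested genes were higher. The median log2 fold change of the 6 at 7 d was 0.48 in wild-type and -0.62 in the line. The 6 include Os04g0536500, which is outside the rule. Among the others the middle value in the line was 0.42, that of ONAC018, so the sign of the line median rests on that gene outside the rule. OsNAC7 was higher each time. ONAC007, known as OsSWN1, had a mean of 0.478 CPM on N6 and 2.46 CPM at 7 d in wild-type (log2 fold change 2.36), a call lost without replicate 3 on N6. ONAC031, known as OsSWN2, had means of 1.9 and 0.186 CPM and was lower at 7 d (-3.34). Of 5 listed genes that secondary wall NACs control, 3 were tested, the cellulose synthases of the secondary wall. In wild-type 1 of the 3 was lower at 5 d and at 7 d, and in the line 2 were lower at 7 d, with a median log2 fold change of -1.55 in wild-type and -2.97 in the line at 7 d. Of all tested genes 14.7% and 12.5% were lower at 7 d, and 3 genes are too few to set against these shares.

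Only OMTN1 and NAC2 of the 6 listed miR164 targets were members. OMTN1 rose in wild-type to 25.3, 24.3 and 26 CPM at 7 d (log2 fold change 1.62 ± 0.32, adjusted p = 0.0003) and in the line from 4.89, 3.01 and 3.58 CPM to 8.56, 6.24 and 9.36 CPM (1.07 ± 0.32, adjusted p = 0.01), the latter lost under library totals and without replicate 2 on N6 or replicate 3 at 7 d. NAC2, which affects tiller number in rice, stayed between 1.04 and 4.4 CPM in all libraries and passed in neither genotype. Of the 4 KNOX genes listed as partners of the boundary NACs, 1 was lower at 2 d and 2 were lower at 5 and 7 d in wild-type, and in the line 1 was lower at 5 d and 1 at 7 d. Lower calls took 4.01%, 14.6% and 14.7% of all tested genes in wild-type at 2, 5 and 7 d and 4.21% and 12.5% in the line at 5 and 7 d. The genes lower in wild-type were OSH1 and OSH15, both genes of the shoot meristem. OSH1 had a mean of 3.47 CPM on N6 and no counts at 7 d in wild-type.

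The members were spread over all 12 chromosomes, and 14 of them lay in 5 groups of neighbouring NAC genes (IRGSP-1.0 coordinates). On chromosome 10, between 14436872 and 14448666, ONAC118, ONAC148 and ONAC119 lie next to each other. ONAC148 was at 0, 0.124 and 0 CPM on N6 and 1.55, 1.14 and 1.44 CPM at 5 d in wild-type, a rise (log2 fold change 5.01 ± 1.29, adjusted p = 0.0037), while its neighbour ONAC118 fell there. ONAC119 reached a group mean of at most 0.022 CPM. On chromosome 11, between 18288358 and 18314023, ONAC025, ONAC127, ONAC128 and ONAC129 reached at most 0.0874 CPM as a group mean.

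The groups NAC122, ONAC123 and ONAC045 on chromosome 11 (1233932 to 1271179) and NAC131 and ONAC077 on chromosome 12 (1139026 to 1148742) lie in a duplicated stretch of the rice genome, so reads could be split between near-identical copies and their values are uncertain. NAC122 was at 0.116, 0 and 0 CPM on N6 and 2.31, 4.08 and 2.35 CPM at 7 d in wild-type (6.13 ± 1.63, adjusted p = 0.0039), and at 0, 0 and 0.276 CPM and 3.05, 4.04 and 2.81 CPM in the line (5.15 ± 1.52, adjusted p = 0.0097). NAC131 rose alongside, to 5.26, 7.15 and 3.51 CPM at 7 d in wild-type (3.71 ± 1.29, adjusted p = 0.021), which was lost without any of 3 single libraries. ONAC077 had its highest levels at 2 d in wild-type, 4.45, 6.09 and 5.15 CPM after 0.872, 1.16 and 1.61 CPM on N6. ONAC109 and ONAC110, on chromosome 9 between 21902714 and 21908009, reached group means of at most 0.445 and 0.0561 CPM.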

How the data were processed

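Per the labels, polyA RNA was sequenced from 24 libraries. The processing notes name Trimmomatic 0.36 for trimming, HISAT2 2.1.0 for alignment against IRGSP-1.0 and StringTie 1.3.4d for quantification by the authors. The methods also name UMI-tools, and whether it was applied is not given in the sources used here. For every gene and library the deposited table holds 1 estimated count and 1 FPKM value. The estimated counts are whole numbers, not normalized, and all 24 libraries held more genes at 4 counts than at 3 or 5, so 1 fragment may count about 4 times and low values rest on few fragments. FPKM of a gene at 0 is listed as 0.0001.

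Counts were tested with edgeR 4.0.16 (R 4.3.3), with TMM factors, filterByExpr, a single quasi-likelihood fit over the 8 groups, F-tests (16 residual degrees of freedom), and Benjamini-Hochberg adjustment over 29710 genes. SE was derived from the test, by dividing the size of the log2 change by the root of F. CPM has no prior count. The floor for genes at 0 was 12 counts per library. On simulated data, 98% of changes of 1.5 and 100% of changes of 2 (log2) were called in wild-type at 7 d. For the genotype difference at 7 d these shares were 66% and 93%, with 4 and 7 false calls. The changed genes were drawn only from those with a mean above 1 CPM. All genes had the same fixed spread, and only the wild-type group at 7 d was changed. These shares thus do not describe members with lower levels or a wider spread between libraries.

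Named genes are the 5 highest and 5 lowest called members by fold in each wild-type comparison, the 4 called members with the smallest p in each other comparison, the 8 with the highest mean FPKM, and examples of the lists. The members and lists were chosen with earlier results of these data known. For the alternatives, DESeq2 1.42.0 and limma 3.58.1 were used, and all were run on the same libraries: RLE factors, library totals, no filter, only the groups compared, a replicate block, counts divided by 4, limma on log2(FPKM + 1) and log2(FPKM + 0.1), no minimum fold, and each library left out. Of the members, 10 had an entry in the RefSeq gene table, used for names only. Promoter and transcript sequences were not used here, so no motif or miR164 site was searched, and the miR164 list is one of known targets. Os02g0214500 carries the name tms5 in the table and is given by its ID. Python 3.11.15, pandas 2.3.3 and Matplotlib 3.10.9 drew the figures.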

Additional observations from a re-analysis of the deposited data

Results flagged for a closer look

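For these named NAC genes the change from N6 differed between the genotypes in the edgeR test of the difference, given as the wild-type log2 change minus that of the line. At 5 d the change was larger or more positive in wild-type for ONAC039 (1.46), and lower in wild-type for OsNAC8 (-1.19), ONAC075 (-3.99), ONAC088 (-2.09), ONAC012 (-2.11), ONAC019 (-1.02), ONAC118 (-3.45), ONAC121 (-6.26) and ONAC139 (-1.5). At 7 d it was more positive in wild-type for ONAC013 (2.16), ONAC039 (2.62) and OsNAC3 (1.24), and lower for ONAC075 (-4.9), ONAC041 (-1.53), ONAC070 (-1.05), ONAC088 (-2.54), ONAC019 (-1.47), ONAC103 (-1.98), ONAC005 (-1.12), ONAC118 (-4.7), ONAC121 (-6.8) and ONAC139 (-2.14). Under library totals the calls of OsNAC8, ONAC012 and ONAC019 at 5 d and of ONAC041, ONAC070, ONAC019 and ONAC005 at 7 d were lost.

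Some of these values are fitted against groups with no counts, depend on the prior count and give no size. They are those of ONAC083 at 2 d (10.85), 5 d (6.71) and 7 d (7.84), of ONAC012 at 7 d (-9.69) and of ONAC108 at 7 d (6.74). The call for ONAC108 was lost without any of 15 single libraries. That for ONAC039 at 5 d was lost without any of 8, and that for ONAC012 at 5 d without any of 12.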

How the results depend on the processing

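For the 54 pairs of a gene and a comparison that the rule for named genes picked, 1785 of 1831 values under the alternatives kept their direction and side of the threshold, 46 no longer passed and 0 reversed. Dropping the minimum fold could not lose a call, and its values are among the 1785. Many of the left-out libraries lay outside the comparison at hand. Values where a gene was not tested or had no adjusted p were not counted. Over all 266 calls of members in the 13 comparisons, which include every member call given above, 136 were lost under at least 1 alternative, in 233 of 2374 values under other settings and in 370 of 6384 with a library left out. The replicate numbers did not pair the libraries: deviations from the group mean correlated at a mean of -0.015 for the same number (84 pairs, -0.418 to 0.301) and 0.0073 for other numbers. With the replicate block, 0 members were lower in the line at 2 d, and at 7 d 7 had a positive and 14 a negative difference between the genotypes. RLE factors and no filter kept every count within 1.5 times.

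Under DESeq2, 2 members were lower in the line at 2 d and 5 at 7 d, 2 were higher and 4 lower in the line on N6, and at 2 d the genotype difference had 2 positive and 2 negative calls. Under library totals the genotype difference had 6 negative calls at 5 d and 15 positive ones at 7 d, wild-type at 7 d against 2 d had 17 higher and 7 lower, and the mean over conditions 6 higher. The counts of all genes under that scaling are given with these comparisons above. With counts divided by 4 or only the groups compared, wild-type at 7 d against 2 d had 13 higher, and the latter gave 1 negative genotype difference at 2 d and 1 positive one at 5 d. With no minimum fold, 2 were higher in the line on N6, 14 in wild-type at 7 d against 2 d and 21 in the mean.

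With limma on log2(FPKM + 0.1), 6 members were lower in the line at 7 d and 1 on N6. The genotype difference had 2 positive and 2 negative calls at 2 d, 10 positive at 5 d and 26 at 7 d, wild-type at 7 d against 2 d had 18 higher and the mean 6. With log2(FPKM + 1), which understates low genes, 6 were lower in wild-type at 5 and at 7 d. In the line 5, 13 and 12 were higher at 2, 5 and 7 d and 1 was lower at 5 d, and on N6 0 were higher and 1 lower. The genotype difference had 4 positive and 2 negative calls at 2 d, 8 positive at 5 d, and 17 and 8 at 7 d. At 7 d against 2 d 12 were higher and 4 lower in wild-type and 9 higher in the line, and the mean had 4 and 12.

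Without single libraries, wild-type at 2 d had 13 to 16 higher and 4 to 7 lower, at 5 d 20 to 25 and 10 to 13, and at 7 d 21 to 26 and 10 to 13. The line had 6 to 10 and 0 to 1 at 2 d, 18 to 26 and 1 to 4 at 5 d, and 19 to 22 and 3 to 6 at 7 d, and on N6 1 to 2 and 1 to 3. The genotype difference had 1 to 2 and 0 to 1 at 2 d, 1 to 5 and 7 to 13 at 5 d, and 5 to 10 and 12 to 16 at 7 d. For 7 d against 2 d the ranges were 4 to 10 and 8 to 12 in wild-type and 11 to 16 and 4 to 7 in the line, and for the mean 7 to 10 and 15 to 24.

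Genes under about 1 CPM rest on few fragments, and with 3 libraries a group, smaller changes can be missed.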

Other observations

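Outside the rule, 3 NAC genes listed as miR164 targets were measured, of the NAM and CUC type known for organ boundaries, and were named after their values were seen. OMTN3 had a mean of 11.2 CPM on N6, 2.58 CPM at 2 d, 1.71 CPM at 5 d and 2.56 CPM at 7 d in wild-type, and 23.2, 14.3, 114 and 215 CPM in the line. OsY37 had means of 13.4, 4.27, 2.58 and 2.68 CPM in wild-type and 15.4, 12 and then 47.2 and 71.1 CPM in the line. OMTN6 had means of 0.328 CPM on N6 and 0.238 CPM at 7 d in wild-type and 2.11 and 19.8 CPM in the line. At 7 d the wild-type change minus that of the line was -5.34 on the log2 scale for OMTN3, -4.53 for OsY37 and -3.70 for OMTN6. It was 0.54 for OMTN1 and 0.02 for NAC2, the 2 members in the list, and neither passed. On N6 2 of the 5 tested genes of the list were already higher in the line and 1 was lower, beside 1.79% and 1.18% of all tested genes. The member OMTN1, in the same list, ranged at 7 d from 24.3 to 26 CPM in wild-type, against 6.24 to 9.36 CPM in the line.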
